A study of Mus musculus with 8 samples.

Results

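Transcripts of 10 genes of the circadian clock were compared between IE-Cpr-null and wild-type (WT) small-intestinal enterocytes. The genes were 3 activators (Arntl, Clock and Npas2), 5 repressors (Per1, Per2, Cry1, Cry2 and Nr1d1) and 2 output genes (Dbp and Tef). All probe sets that the array's annotation assigns to 1 of these symbols alone were taken, which gave 16 of the 18443 probe sets on the array and covered all 10 genes. All animals were male C57BL/6 mice, 2.5 to 3.0 months old, fed a standard diet without restriction under 12 h of light and 12 h of darkness, and no drug treatment is named. In the IE-Cpr-null line the gene for the reductase that passes electrons to microsomal P450 enzymes (Cpr) is disrupted in intestinal epithelium, and WT littermates served as controls. The sources used here name neither the driver of that deletion nor the hour of death. Each genotype had 4 arrays, every one loaded with a pool of 2 mice (8 mice a genotype), and all errors below rest on variation between pools. Each SE is limma's error of the difference, moderated by a prior from all probe sets, and an SD is named where given.

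The circadian clock is a feedback loop of transcription that turns once a day in most cells, those of the gut epithelium included. Arntl (also called Bmal1) pairs with Clock or with Npas2 and binds E-box sequences near its target genes. Among these targets are the Per and Cry genes, whose proteins block the activators, Nr1d1 (Rev-erb alpha), which represses Arntl and Npas2, and Dbp and Tef, which encode PAR bZIP factors that act on genes with a D-box. Transcripts of Arntl and Npas2 therefore stand high at a time of day when those of Dbp and Nr1d1 stand low, and in the gut the timing of meals shifts this cycle.

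E-boxes are shown first, because they are the sequence through which the activators act on the other members. The 250 bases before each annotated start were searched on both strands in RefSeq sequence of build GRCm38.p6. The table used lists 14 starts for 9 of the 10 genes, all but Per2. The letters CACGTG (E-box) stood in 4 of these 14 windows and in 6.02% of 32851 windows of all genes, and the letters CACGTT (the E-prime variant) in 3 of 14 and in 3.85% of all. The D-box (TTATGTAA or TTACGTAA, in 0.931% of all windows), the RORE core that Nr1d1 and the ROR factors bind (TAGGTCA or TGGGTCA, in 5.38%) and the CRE (TGACGTCA, in 1.55%) were found in 0 of 14. The E-box windows were those of 1 Per1 start, of Cry1 and of both Tef starts, and the Dbp window held no match. Some windows of Arntl and of Clock overlap, so the 14 are not independent. Sites outside these 250 bases were not searched, so 0 of 14 does not mean that a gene lacks the motif. A match is a string of letters and not a measured binding site. The stretches with a match are given with the motif in capitals, 5′ to 3′ on the strand of the gene, and AACGTG is CACGTT read on the other strand.
Per1, chr11:69098743-69098828, plus strand, E-box 166 bases before the start: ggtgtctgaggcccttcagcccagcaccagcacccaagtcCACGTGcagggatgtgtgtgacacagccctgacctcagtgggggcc
Cry1, chr10:85185069-85185173, minus strand, E-prime box 79 and E-box 60 bases before the start: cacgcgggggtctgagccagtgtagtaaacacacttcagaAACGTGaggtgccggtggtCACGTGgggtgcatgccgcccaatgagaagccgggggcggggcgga
Cry2, chr2:92434190-92434275, minus strand, E-prime box 166 bases before the start: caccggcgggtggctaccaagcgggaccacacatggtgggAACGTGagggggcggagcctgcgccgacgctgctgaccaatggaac
Nr1d1, chr11:98775378-98775445, minus strand, E-prime box 28 bases before the start: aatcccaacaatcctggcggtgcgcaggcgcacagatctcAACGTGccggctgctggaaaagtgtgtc
Tef, chr15:81802506-81802591, plus strand, E-box 127 bases before the start: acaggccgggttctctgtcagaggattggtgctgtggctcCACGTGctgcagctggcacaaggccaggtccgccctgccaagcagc
Tef, chr15:81811236-81811321, plus strand, E-box 138 bases before a second start: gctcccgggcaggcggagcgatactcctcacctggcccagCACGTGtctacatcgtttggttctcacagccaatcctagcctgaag

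All values are log2, and each probe set is given relative to the median of its 4 WT values, so the level of expression is not known and signal over background cannot be stated. Some arrays stood apart in markers of other cells. The mean of 6 measured hepatocyte markers of 7 listed was 6.37 on IE-Cpr-null 2 and 4.03 on IE-Cpr-null 3, while the remaining pair of IE-Cpr-null arrays read -0.01 and 0.28 and WT arrays ranged from -0.16 to 0.34. The mean of 7 smooth muscle and stromal markers was 5.36 on IE-Cpr-null 1 and 2.43 on WT 2, and -0.50 to 0.19 on the other 6 arrays. The mean of 5 pancreatic acinar markers of 7 listed was -5.86 on WT 3 and ranged from -5.92 to -2.34 in IE-Cpr-null, while the other WT arrays ranged from -0.73 to 1.77. The mean of 4 enterocyte markers of 6 listed ran from -0.13 to 0.03 over all 8 arrays. The mean of 3 goblet cell markers of 4 listed was lower on every IE-Cpr-null array (-0.40 to -0.17) than on any WT array (-0.02 to 0.02). The mean of 2 Paneth cell markers of 3 listed was 1.99 on IE-Cpr-null 1 and 1.05 on WT 3, and -1.34 to 0.10 elsewhere. That of 2 macrophage and dendritic cell markers of 3 listed was 0.80 on WT 3 and -0.84 to -0.04 elsewhere. For 3 B cell markers it was 0.92 on IE-Cpr-null 3 and -0.50 to 0.37 elsewhere. For 4 T cell markers it was 0.19 to 0.31 on IE-Cpr-null 2 to 4 and -0.11 to 0.07 elsewhere. For 3 enteroendocrine markers it ran from -0.29 to 0.12 in WT and from -0.44 to -0.19 in IE-Cpr-null. The part of these cells in the results was not tested. The values of a centred table cannot show whether a marker is present or absent, and the targeted gene is not analysed here. The arrays rich in hepatocyte transcripts (IE-Cpr-null 2 and 3) or in muscle transcripts (IE-Cpr-null 1 and WT 2) were each left out as an alternative, and values without them are given beside the results.

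No clock probe set differed between the genotypes past the threshold. In limma, with p adjusted by Benjamini-Hochberg over the whole array and a threshold of 0.05, 0 of the 16 passed, where 0.0217% of all probe sets did. The smallest adjusted p among them was 0.719. At an unadjusted p under 0.05 there were also 0 of 16, against 7.40% of all probe sets, and in 0 of 16 did the groups not overlap, against 4.11% of all. Of the 16 differences (IE-Cpr-null minus WT), 10 were below 0 and 6 above, with a median of -0.219, while over the whole array 42.5% were below 0 and the median was 0.0161. The plot of differences with their intervals shows that every interval spans 0. RNA of a whole enterocyte preparation was measured, so a smaller number of cells of one type and less RNA per cell cannot be told apart.

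**Figure D1:**
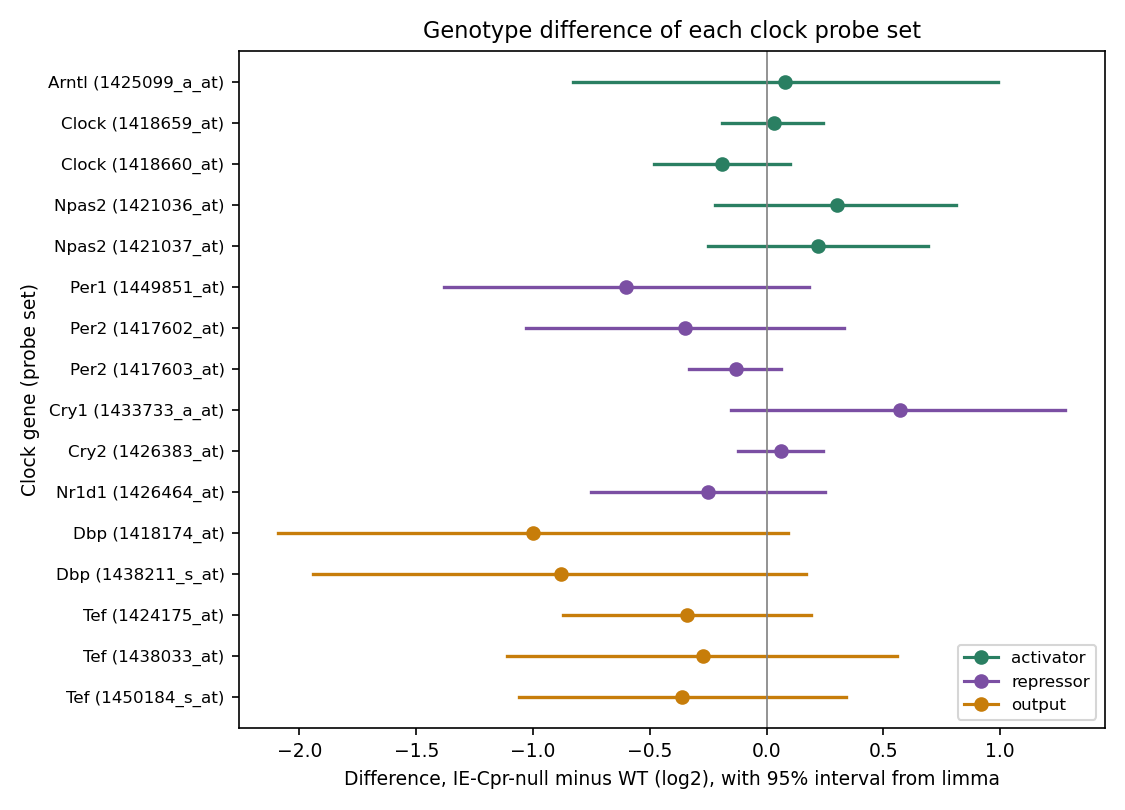
Difference between the genotypes (IE-Cpr-null minus WT, log2, horizontal axis) of each of the 16 clock probe sets (vertical axis), with the 95% interval from limma, 4 arrays per genotype, coloured by role. All 16 intervals span 0, and the points lie between -1.0 (Dbp) and 0.57 (Cry1).

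What the clock genes did show was a wide spread between pools of the same genotype. Within WT alone the 4 values spanned at least 1 log2 unit in 5 of the 16 clock probe sets (31.2%) and in 3.64% of all probe sets. Within IE-Cpr-null alone they did so in 7 of 16 (43.8%) and in 6.67% of all. Both Dbp probe sets are in each count, with an r of 0.99 to each other. The median SD within a group was 0.32 in WT and 0.398 in IE-Cpr-null for the clock probe sets, and 0.091 and 0.115 for all probe sets. WT 1 held the end value of its group in Arntl (1.14), both Dbp probe sets (-0.79 and -0.88) and a Tef probe set (-1.40). IE-Cpr-null 2, with the highest hepatocyte mean (6.37), held it in both Dbp probe sets (-2.40 and -2.13) and Cry1 (1.52). It did so too in a Per2 (-1.02) and a Tef (-1.30) probe set. Per1 in both genotypes, and Arntl in IE-Cpr-null, spanned at least 1 log2 unit without these arrays. The part of hepatocyte RNA was not tested. The plot of the 10 genes by array shows the spread gene by gene.

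**Figure D2:**
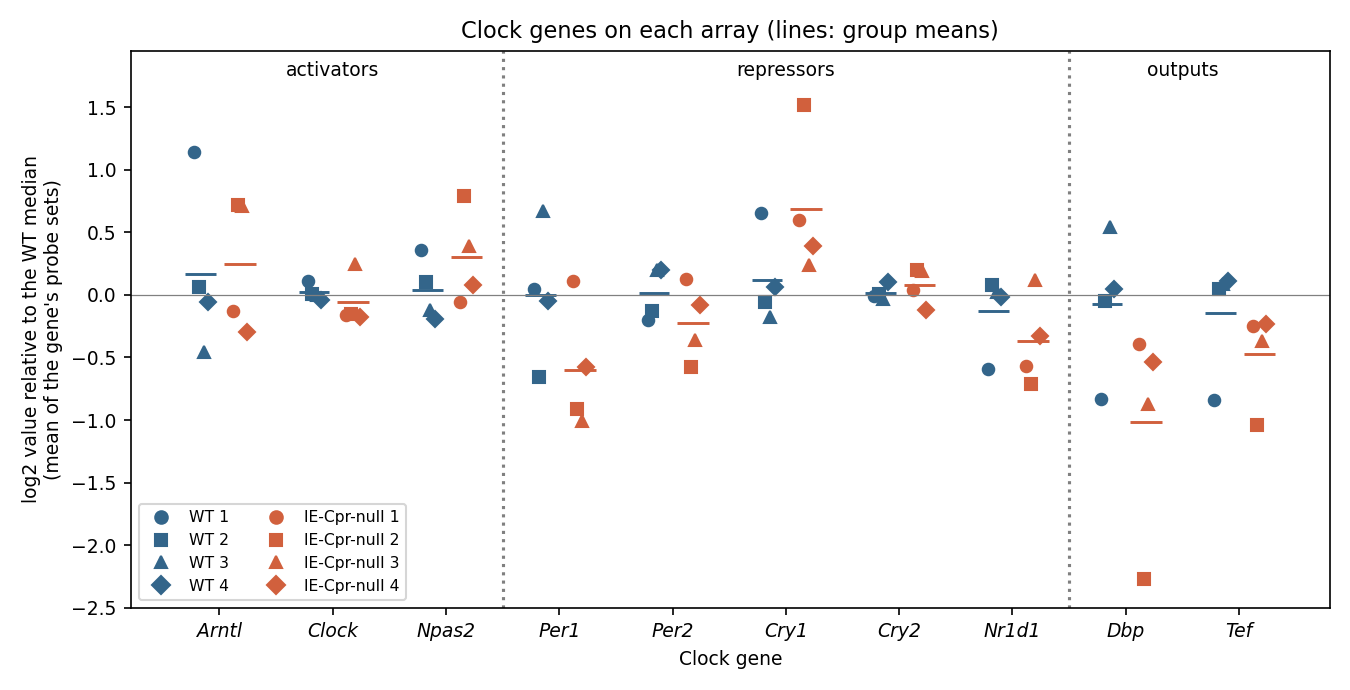
Value of each clock gene (horizontal axis, mean of its probe sets) on each of the 8 arrays, as log2 relative to the WT median (vertical axis). Points are arrays, with a marker shape per replicate number that pairs nothing, and lines are group means. WT 1 lies apart from the other WT arrays in Arntl (1.14), Dbp (-0.83) and Tef (-0.84), and IE-Cpr-null 2 is the lowest array in Dbp (-2.27) and the highest in Cry1 (1.52).

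All 5 probe sets of the output genes had differences below 0, with a median of -0.36, and Dbp had the most negative of all members. Dbp, which encodes the D-site binding protein and has one of the steepest daily rhythms of the known clock targets, was -0.79, -0.05, 0.50 and 0.05 on WT 1 to 4 and -0.47, -2.40, -0.86 and -0.57 on IE-Cpr-null 1 to 4. The groups overlapped because WT 1 lay below 2 of the IE-Cpr-null arrays, while the other 3 WT arrays lay above all of them. The difference was -1.0 (SE 0.468, 95% interval -2.09 to 0.09, limma adjusted p = 0.719). The second Dbp probe set gave -0.88 (SE 0.453, adjusted p = 0.759), and the profiles of the pair over the 8 arrays had a Pearson r of 0.99. IE-Cpr-null 2, with the highest hepatocyte mean, carried the lowest Dbp value. Without IE-Cpr-null 2 the difference of the first probe set was -0.56, without the hepatocyte-rich arrays -0.45 (SE 0.341), and without WT 1 it was -1.24, with an adjusted p of 0.235 to 0.974 over all alternatives. The part of hepatocyte RNA in these values was not tested.

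Tef, the thyrotroph embryonic factor and a relative of Dbp, was -0.56, -0.02, 0.30 and 0.02 on WT 1 to 4 and -0.18, -0.94, -0.28 and -0.22 on IE-Cpr-null 1 to 4 (first probe set). As for Dbp, WT 1 and IE-Cpr-null 2 were the lowest arrays of their groups, and WT 1 lay below 3 of the IE-Cpr-null arrays. The difference was -0.34 (SE 0.228, interval -0.87 to 0.19, adjusted p = 0.86). The other Tef probe sets gave -0.27 (SE 0.357) and -0.36 (SE 0.301), and the lowest single value of the gene was -1.40, on WT 1. Without the hepatocyte-rich arrays the differences of the 3 Tef probe sets were -0.13, -0.13 and -0.01, without IE-Cpr-null 2 -0.16, -0.16 and -0.08, and without WT 1 -0.50, -0.65 and -0.51.

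Among the activators the differences were small beside the spread. Arntl, whose protein is the common partner in the activating pair, was 1.14, 0.06, -0.46 and -0.06 on WT 1 to 4 and -0.13, 0.72, 0.71 and -0.30 on IE-Cpr-null 1 to 4. WT 1, IE-Cpr-null 2 and IE-Cpr-null 3 were high and the other 5 arrays lay between -0.46 and 0.06. The difference was 0.08 (SE 0.39, interval -0.83 to 0.99, adjusted p = 0.94). It turned to -0.13 without WT 3, to -0.08 without IE-Cpr-null 2, to -0.07 without IE-Cpr-null 3 and to -0.39 without both hepatocyte-rich arrays, and was 0.40 without WT 1.

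Npas2, the paralog that can take the place of Clock, was high on the same 3 arrays. Its first probe set read 0.39, 0.12, -0.16 and -0.12 on WT 1 to 4 and -0.13, 0.78, 0.63 and 0.13 on IE-Cpr-null 1 to 4, a difference of 0.30 (SE 0.221, interval -0.22 to 0.81, adjusted p = 0.86). The second read 0.33, 0.08, -0.08 and -0.25 on WT 1 to 4 and -0.0047, 0.79, 0.15 and 0.03 on IE-Cpr-null 1 to 4, a difference of 0.22 (SE 0.201, adjusted p = 0.86). Without IE-Cpr-null 2 these differences were 0.15 and 0.04, and without both hepatocyte-rich arrays -0.06 and -0.01. WT 1 was the highest WT array in both. The part of hepatocyte RNA in the Npas2 values was not tested.

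Clock, the other partner of Arntl and a gene known for little daily change in its transcript, varied least among the activators. Its first probe set lay between -0.02 and 0.24 in WT and between -0.01 and 0.31 in IE-Cpr-null, with a difference of 0.03 (SE 0.0917, adjusted p = 0.913). Its second lay between -0.07 and 0.02 in WT and was -0.31, -0.32, 0.20 and -0.37 in IE-Cpr-null, so that 3 of the 4 IE-Cpr-null arrays were below all WT arrays. That difference was -0.19 (SE 0.124, interval -0.48 to 0.10, adjusted p = 0.857), and -0.33 (SE 0.0499, adjusted p = 0.326) without the hepatocyte-rich arrays. Of these, leaving out IE-Cpr-null 3 alone gave -0.32 (SE 0.0401, adjusted p = 0.157), and leaving out IE-Cpr-null 2 alone gave -0.15 (SE 0.138). The 2 Clock probe sets disagreed in sign and had an r of 0.60 over the 8 arrays.

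The repressors did not go one way. Per1, a period gene that is also induced acutely by hormones and light, was 0.05, -0.66, 0.67 and -0.05 on WT 1 to 4 and 0.11, -0.91, -1.01 and -0.58 on IE-Cpr-null 1 to 4. IE-Cpr-null 1 lay above 3 of the WT arrays, and WT 2 was the only WT array within the range of the other 3 IE-Cpr-null arrays. The difference was -0.60 (SE 0.334, interval -1.38 to 0.18, adjusted p = 0.789). IE-Cpr-null 1 and WT 2 are the arrays rich in muscle transcripts, and without them it was -1.06 (SE 0.223, adjusted p = 0.293), while without the hepatocyte-rich arrays it was -0.23 (SE 0.391) and without WT 3 it was -0.38. The part of either tissue in this result was not tested.

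Per2, the second period gene, was -0.25, -0.16, 0.31 and 0.16 on WT 1 to 4 and 0.33, -1.02, -0.61 and -0.06 on IE-Cpr-null 1 to 4 in its first probe set. IE-Cpr-null 2 and 3 lay below all WT arrays and IE-Cpr-null 1 above all of them. The difference was -0.35 (SE 0.292, interval -1.03 to 0.33, adjusted p = 0.86), with -0.13 without IE-Cpr-null 2, -0.58 without IE-Cpr-null 1, -0.64 without the muscle-rich and 0.12 without the hepatocyte-rich arrays. The second probe set varied less, from -0.14 to 0.25 in WT and from -0.15 to -0.07 in IE-Cpr-null, with a difference of -0.13 (SE 0.085, adjusted p = 0.847).

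Cry1, a cryptochrome that blocks the activating pair and whose transcript is known to peak later than those of the Per genes, differed the other way. Its values were 0.65, -0.06, -0.18 and 0.06 on WT 1 to 4 and 0.60, 1.52, 0.24 and 0.39 on IE-Cpr-null 1 to 4. All 4 IE-Cpr-null arrays lay above WT 2, 3 and 4, and WT 1 lay above 3 of them. The difference was 0.57 (SE 0.306, interval -0.15 to 1.28, adjusted p = 0.78), with 0.29 without IE-Cpr-null 2, 0.37 without both hepatocyte-rich arrays and 0.74 without WT 1. Its relative Cry2 was nearly flat, between -0.03 and 0.10 in WT and between -0.12 and 0.20 in IE-Cpr-null, with a difference of 0.06 (SE 0.077, adjusted p = 0.86).

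Nr1d1, the nuclear receptor that represses Arntl, was -0.59, 0.08, 0.02 and -0.02 on WT 1 to 4 and -0.57, -0.71, 0.12 and -0.33 on IE-Cpr-null 1 to 4. WT 1 was again apart from its group, and IE-Cpr-null 3 was the highest of all 8 arrays. The difference was -0.25 (SE 0.215, interval -0.75 to 0.25, adjusted p = 0.86). It was -0.41 without IE-Cpr-null 3, -0.40 without WT 1, -0.14 without IE-Cpr-null 2 and -0.11 without the muscle-rich arrays.

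Set side by side by role, activators and outputs lay at opposite ends on 4 of the 8 arrays. Each gene was taken as the mean of its probe sets and each role as the mean of its genes. The activators were 0.54 on WT 1 and 0.45 on both IE-Cpr-null 2 and IE-Cpr-null 3, and between -0.19 and 0.05 on the other 5 arrays. The outputs were -0.83, -1.66 and -0.62 on those 3 arrays, and between -0.39 and 0.31 on the other 5. The 3 arrays with the highest activator means were thus the 3 with the lowest output means, 1 of them WT and 2 IE-Cpr-null. These 2 IE-Cpr-null arrays are the hepatocyte-rich ones (marker means 6.37 and 4.03), and the part of hepatocyte RNA was not tested. WT 3 had the reverse arrangement, with the lowest activator mean (-0.19) and the highest output mean (0.31). IE-Cpr-null 1 and 4 were below 0 in both roles (activators -0.12 and -0.13, outputs -0.32 and -0.39), and WT 2 and 4 lay near 0 in both. The repressors, in which Cry1 and the Per genes differed in opposite directions, stayed between -0.17 and 0.14.

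**Figure D3:**
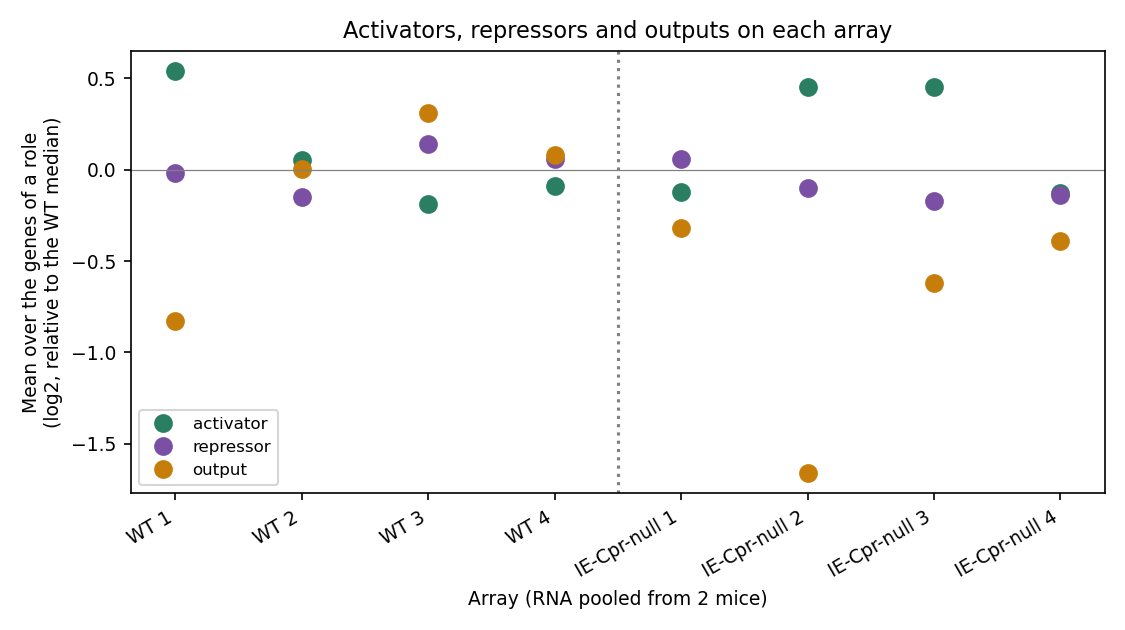
Mean of the activator, repressor and output genes (vertical axis, log2 relative to the WT median) on each array (horizontal axis, RNA pooled from 2 mice). Activators lie above outputs by the widest margins on WT 1, IE-Cpr-null 2 and IE-Cpr-null 3, while on WT 3 the outputs (0.31) lie above the activators (-0.19). IE-Cpr-null 2 and IE-Cpr-null 3 are the hepatocyte-rich arrays.

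The activators minus the mean of the 7 repressors and outputs came to 0.79, 0.16, -0.38 and -0.16 on WT 1 to 4 and to -0.07, 1.00, 0.75 and 0.08 on IE-Cpr-null 1 to 4. The means were 0.10 ± 0.51 in WT and 0.44 ± 0.51 in IE-Cpr-null (SD, n = 4 pools each), and their difference of 0.33 was below either SD. Without the hepatocyte-rich arrays it was -0.10. Over the genotypes, the activator mean differed by 0.09, the repressor mean by -0.09 and the output mean by -0.63. No test is given for these means, since the members were chosen with earlier results of these data known.

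Pairs of genes showed the opposition to unequal degrees. The correlations that follow describe these 8 arrays, which share 1 preparation each between the 2 genes compared, and are given with no p among 45 pairs of members. Npas2 and Per2 had a Pearson r of -0.98 (Spearman rho -0.98), Npas2 and Dbp one of -0.93 (rho -0.90), and Cry1 and Dbp one of -0.94 (rho -0.81). Cry1 and Nr1d1 had an r of -0.87, Arntl and Per2 one of -0.75, and Arntl and Npas2 one of 0.79. With each group's mean subtracted first, so that the genotypes no longer differ on average, these 6 values were -0.97, -0.93, -0.90, -0.85, -0.81 and 0.84. Without the 2 arrays farthest from the median of the first gene they were -0.94, -0.75, -0.66, -0.91, -0.80 and 0.81. Dbp and Tef had an r of 0.91, and 0.87 without the 2 farthest arrays. These pairs are among those that stayed strong. Of the 45 pairs, 27 had an r of at least 0.5 in size, and 18 of these were still at least 0.5 with the same sign without the 2 farthest arrays. In 12 of the 45 the sign turned, and Clock or Cry2 was in 10 of these 12. Clock had an r of 0.12 to Dbp and 0.15 to Npas2. Cry2 had an r of 0.55 to Npas2 and -0.56 to Dbp, which turned to -0.40 and 0.25. Arntl and Nr1d1, at -0.37, turned to 0.42. Per2 and Cry1, at -0.70, went to -0.04, and Nr1d1 and Dbp went from 0.66 to 0.24.

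**Figure D4:**
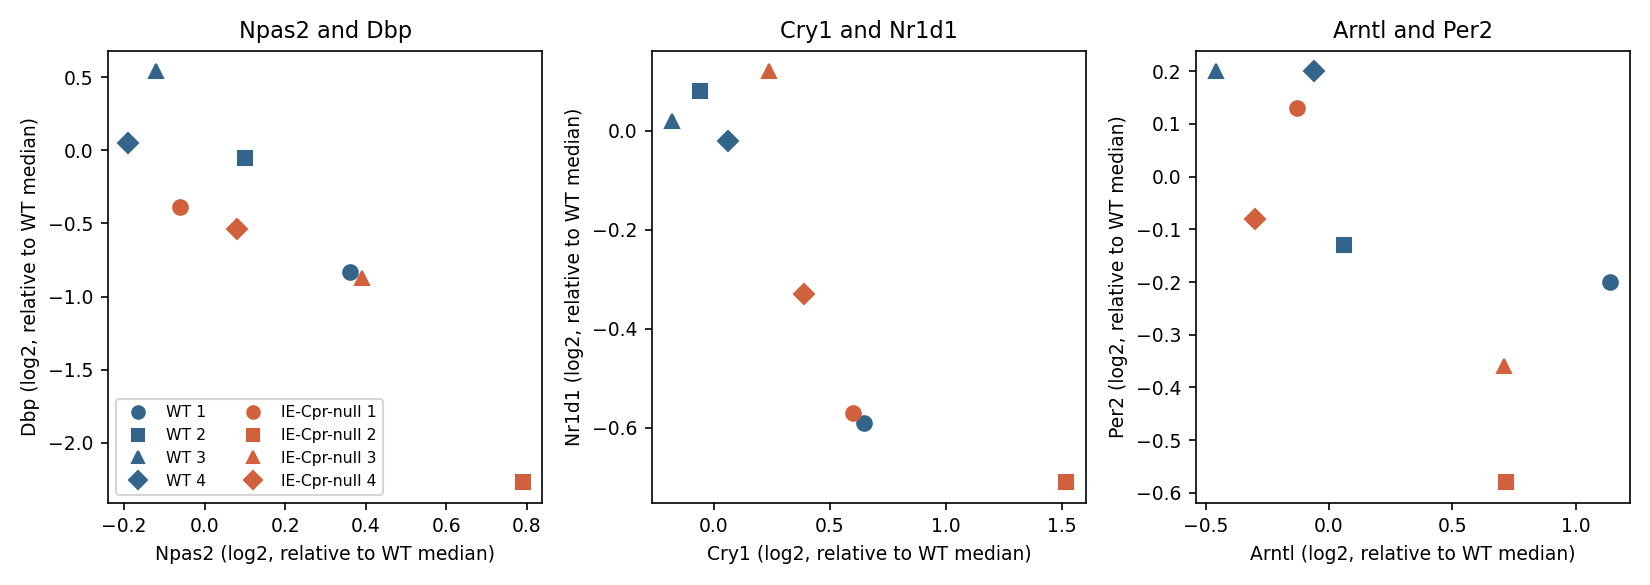
Pairs of clock genes over the 8 arrays, with both axes in log2 relative to the WT median and each point an array (blue WT, orange IE-Cpr-null). WT 1 lies next to IE-Cpr-null 3 for Npas2 and Dbp (r = -0.93) and next to IE-Cpr-null 1 for Cry1 and Nr1d1 (r = -0.87), and the third panel shows Arntl and Per2 (r = -0.75).

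The wider clock was covered by 37 further genes in 4 lists, of which 27 were measured by 52 probe sets. In limma, 0 of the 52 passed the threshold after adjustment, and 7 had an unadjusted p under 0.05, 4 higher and 3 lower, where 2.92% of all probe sets were higher and 4.47% lower. With array weights, which called 4.02% of all probe sets (1.91% higher and 2.11% lower) and 0 of the 16 members, 4 of the 52 passed after adjustment, 2 higher and 2 lower. They were probe sets of Hlf, Wee1, Csnk1e and Cdkn1a. The Cdkn1a probe set that passed differed by 0.14 (SE 0.0554) without weights, and is not the Cdkn1a probe set described below.

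Of the 7 measured members of the clock loop (12 listed, 10 probe sets), Hlf had the smallest p. It encodes the third PAR bZIP factor beside Dbp and Tef. It was -0.80, -0.02, 0.56 and 0.02 on WT 1 to 4 and -0.62, -2.38, -2.23 and -1.75 on IE-Cpr-null 1 to 4. Only WT 1 and IE-Cpr-null 1 kept the groups from separating. The difference was -1.69 (SE 0.435, interval -2.70 to -0.68, unadjusted p = 0.0052, adjusted p = 0.362), -1.13 (SE 0.462) without the hepatocyte-rich arrays, -2.05 without the muscle-rich ones, and -1.81 with array weights (adjusted p = 0.0209, the lowest of a range up to 0.97). The second Hlf probe set differed by -0.20 (SE 0.163), so that the size rests on 1 probe set. Over the 8 arrays Hlf, as the mean of its probe sets, had an r of 0.85 to Dbp.

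Nr1d2, the paralog of Nr1d1, differed by -0.48 (SE 0.265, adjusted p = 0.789), with -1.31 on IE-Cpr-null 2 and -0.55 to 0.07 on the other 7 arrays, and by -0.21 without that array. Nfil3, a repressor that competes with Dbp, Tef and Hlf for the D-box, was 0.45, -0.23, -0.29 and 0.23 on WT 1 to 4 and 0.19, 0.90, 0.57 and -0.21 on IE-Cpr-null 1 to 4, a difference of 0.32 (SE 0.269, adjusted p = 0.86). It was high on the 3 arrays where Arntl was high. Timeless differed by 0.05 (SE 0.0452).

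Kinases and ubiquitin ligases that act on clock proteins were measured by 20 probe sets of 7 genes out of 11 listed. Csnk1e, the casein kinase 1 epsilon that phosphorylates Per proteins, was -0.56, -0.01, 0.24 and 0.01 on WT 1 to 4 and 0.47, 0.31, 0.52 and 0.45 on IE-Cpr-null 1 to 4. The lowest IE-Cpr-null value exceeded the highest WT value, as in 1.64% of all probe sets. The difference was 0.52 (SE 0.159, interval 0.15 to 0.89, unadjusted p = 0.0125, adjusted p = 0.471, and 0.0475 to 0.97 over the alternatives). It was 0.54 without the hepatocyte-rich and 0.53 without the muscle-rich arrays, and 0.37 (SE 0.15) in the second Csnk1e probe set, where the groups overlapped. The other kinases and ligases are given by their probe set with the smallest p. Csnk1d, a close relative of Csnk1e, differed by 0.12 (SE 0.0771), while its 5 probe sets ran from -0.04 to 0.12 with a gene mean of 0.06. Csnk2a1, a subunit of casein kinase 2, differed by 0.22 (SE 0.167), while its 6 probe sets ran from -0.07 to 0.33 with a gene mean of 0.09. Fbxw11, a ligase subunit, differed by -0.11 (SE 0.0564). The groups of that Csnk2a1 probe set did not overlap either, with WT 1 at -0.73 and the other 7 arrays between -0.0011 and 0.06, and the difference was 0.03 without WT 1.

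Clock-controlled genes of many tissues were measured by 15 probe sets of all 8 genes listed. Wee1, the mitotic kinase gene with E-boxes known to bind the activators, was -0.22, -0.28, 0.39 and 0.22 on WT 1 to 4 and -0.28, -1.43, -0.91 and -0.88 on IE-Cpr-null 1 to 4. IE-Cpr-null 2, 3 and 4 lay below all WT arrays and IE-Cpr-null 1 beside the lowest of them. The difference was -0.90 (SE 0.258, interval -1.50 to -0.30, unadjusted p = 0.00901, adjusted p = 0.432, and 0.0284 to 0.97 over the alternatives), and -0.60 (SE 0.263) without the hepatocyte-rich arrays. The second Wee1 probe set gave -0.54 (SE 0.265). Cdkn1a, a cell cycle inhibitor, differed by 0.24 (SE 0.0871, adjusted p = 0.57) in its probe set with the smallest p. The groups of that probe set did not overlap, with IE-Cpr-null higher, as in 1.64% of all probe sets. Its adjusted p in limma with array weights was 0.0519. Alas1, the first enzyme of haem synthesis, differed by 0.25 (SE 0.11, adjusted p = 0.694), and Nampt, an enzyme of NAD salvage, by -0.13 (SE 0.0719, adjusted p = 0.781).

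Genes of intestinal absorption with a known daily rhythm were measured by 7 probe sets of 5 genes out of 6 listed. Slc2a2, which encodes the glucose transporter GLUT2, was -0.11, 0.06, -0.03 and 0.03 on WT 1 to 4 and -0.32, -0.35, -0.35 and -0.15 on IE-Cpr-null 1 to 4. The highest IE-Cpr-null value was under the lowest WT value, as in 2.47% of all probe sets, and the difference was -0.28 (SE 0.0612, interval -0.42 to -0.14, unadjusted p = 0.00209, adjusted p = 0.318). It was -0.22 (SE 0.0754) without the hepatocyte-rich arrays. The fructose transporter gene Slc2a5 differed by -0.20 (SE 0.127, and -0.09 without the hepatocyte-rich arrays), the sodium-glucose cotransporter gene Slc5a1 by -0.06 (SE 0.0498) and the peptide transporter gene Slc15a1 by 0.10 (SE 0.0512), each with groups that overlapped.

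**Figure D5:**
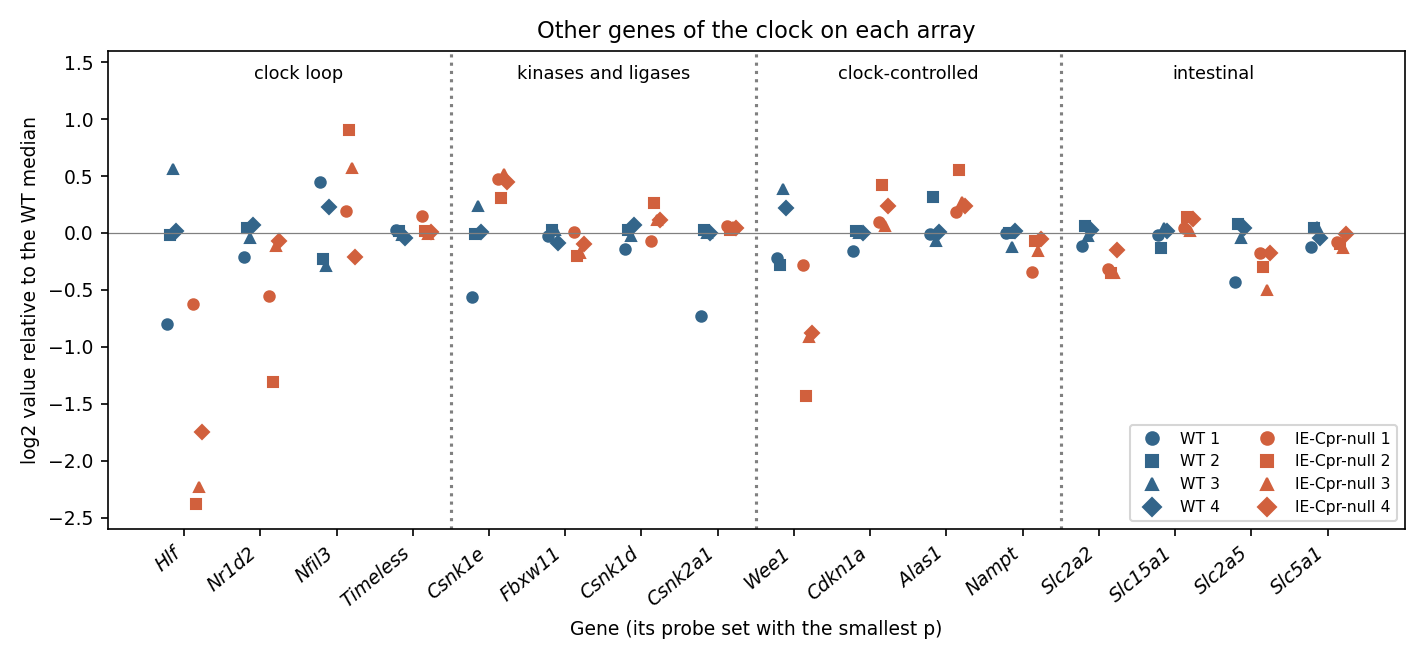
Further clock genes on each array (vertical axis, log2 relative to the WT median), for the 4 genes of each list with the smallest p, each shown by 1 probe set (horizontal axis). Hlf and Wee1 are low on IE-Cpr-null 2, 3 and 4 (Hlf -2.38, -2.23 and -1.75), and Csnk1e lies between 0.31 and 0.52 on the IE-Cpr-null arrays.

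The profile of repressors and outputs minus activators was also set against 1784 probe sets of other genes that spanned at least 1 log2 unit. The 3 genes most like it over the 8 arrays were AW209491 (r = 0.93), Klf9 (r = 0.92), a Krüppel-like transcription factor gene, and Sdad1 (r = 0.91). The 3 most opposed were Dab1 (r = -0.95), Aqp8 (r = -0.92), a water channel gene, and Ier5 (r = -0.92), an immediate early gene. With 8 points and this many candidates, values of this size describe the arrays and carry no test. Klf9 was -0.35, -0.04, 0.18 and 0.04 on WT 1 to 4 and 0.12, -0.92, -0.75 and -0.24 on IE-Cpr-null 1 to 4. Aqp8 was 0.46, 0.12, -0.99 and -0.12 on WT 1 to 4 and 0.04, 1.34, 0.94 and -0.30 on IE-Cpr-null 1 to 4. Both thus had WT 1, IE-Cpr-null 2 and IE-Cpr-null 3 at one end. Among the further clock genes that spanned as much, the Wee1 probe sets ranked 10 (r = 0.86) and 50 (r = 0.76) from the top, Ppara, a lipid-sensing nuclear receptor, 13 (r = 0.85), Per3 16 (r = 0.82) and Hlf 37 (r = 0.77), and Nfil3 ranked 21 from the bottom (r = -0.82). The other such probe sets lay away from both ends, with r from -0.28 (Nampt) to 0.56 (Nr1d2), and Csnk1e had an r of 0.18. The Per3 probe set that was not ranked spanned 0.16 log2 units over the 8 arrays, with an r of -0.68 to the ranked one. Between the genotypes the differences of these 6 most like and most opposed genes lay within their spread, with the lowest adjusted p at 0.81. Without the hepatocyte-rich arrays Klf9 went from -0.40 to -0.01, Aqp8 from 0.64 to 0.003, Ier5 from 0.62 to 0.19, Dab1 from 0.32 to 0.05 and Sdad1 from 0.01 to 0.45.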

How the data were processed

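TRIzol and columns gave enterocyte RNA, and its biotinylated antisense copies went onto 1-colour arrays, per the labels' protocols. The authors deposited log2 values per probe set. Per the submitters' processing notes these came from GCRMA, whose version is not given. A further centring shows in the values: each of the 18443 probe sets has a WT median of 0 (tolerance 1e-05). Centring removes the level but no difference between groups, and makes the 2 middle WT values mirror images. No probe set was therefore left out as dim.

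Probe sets were named from the platform annotation (16689 with 1 symbol, 616 with several, 1138 not named), and groups came from the sample titles. Each probe set was fitted with limma 3.58.1 in R 4.3.3 (lmFit and eBayes, two-sided, group means only) on the 8 arrays, adjusted by Benjamini-Hochberg over all 18443, and the scripts were tested on simulated data. The prior had 1.54 degrees of freedom. The small number of arrays limits the precision. Members and lists were chosen with earlier results of these data known. All members are named, and of each further list the up to 4 genes with the smallest p, plus the 3 genes most and least like the clock profile. Ppara and Per3 were picked out after their values were seen.

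Alternatives were quantile normalization, median centring, array weights, the replicate block, a robust prior, a filter on SD (above its median), no probe sets that share probes, gene means, each array left out, and no muscle-rich or hepatocyte-rich arrays.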

Additional observations from a re-analysis of the deposited data

Results flagged for a closer look

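In 5 of 40 groups of 4 arrays tested, 1 array stood far from the other 3, where chance flags about 1 in 20 groups. WT 1 was high in the first Clock probe set, at 0.24 against -0.02 to 0.01. IE-Cpr-null 3 was high in both Clock probe sets, at 0.31 against -0.01 to 0.02 and at 0.20 against -0.37 to -0.31. WT 1 was low in Nr1d1, at -0.59 against -0.02 to 0.08. IE-Cpr-null 2 was low in the first Tef probe set, at -0.94 against -0.28 to -0.18. WT 1 and IE-Cpr-null 2 and 3 are also the arrays on which the activator means were high and the output means low. The flagged Clock and Tef values enter those means, so this match is partly built in and is no separate observation. Several groups are probe sets of the same gene and not independent, so the share expected by chance is only a rough yardstick.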

How the results depend on the processing

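No clock member passed the threshold under any of the 18 alternatives. The count over the whole array, 4 as reported, was 7 after a filter on SD (above its median), 741 with array weights, and 1 under the replicate block as well as under quantile normalization. It ran from 1 (without WT 1, 2 or 4) to 16 (without IE-Cpr-null 1) when an array was left out. Among the further clock genes, 4 probe sets passed with array weights in place of 0. Of 23 turns of direction, 9 came without the hepatocyte-rich arrays, to -0.39 for Arntl, -0.05 for Clock (first probe set), -0.06 and -0.01 for Npas2, 0.12 for Per2 (first probe set), -0.06 for Cry2, -0.05 for Nfil3, 0.08 for AW209491 and -0.10 for activators minus repressors and outputs. Arntl turned to -0.21 with quantile normalization and -0.15 with array weights, Clock to -0.00049 with quantile normalization and -0.08 as a gene mean, Cry2 to -0.12 and Nfil3 to -0.13 with array weights, and Sdad1 to -0.17 without the muscle-rich arrays. With 1 array left out, Arntl ran from -0.13 to 0.40, the first Clock probe set from -0.05 to 0.09 and Sdad1 from -0.16 to 0.21. The differences of Dbp, Tef, Per1, Cry1 and Nr1d1 kept their direction under each alternative run. The replicate block, the robust prior, the SD filter and leaving out shared probes could not turn the direction of a probe set. They leave the difference of each probe set kept as it was and change only its error and p. The deviations of same-numbered arrays from their group means correlated by -0.058, -0.041, 0.256 and 0.131, so the numbers were not taken as pairs. Activators minus repressors and outputs has no value with array weights, the block, the robust prior or gene means. The cause of these shifts was not tested, beyond the fewer arrays of the settings that leave some out.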
